A study of Mus musculus with 4 samples.

Results

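The expression of 9 cytokine genes of 3 families was measured across the cells of mouse mammary tumours. The interleukin-1 family is represented by Il1a, Il1b, Il1rn, Il18 and Il33, the interleukin-6 family by Il6, Lif and Osm, and the interleukin-17 family by Il17b. The members were chosen by symbol and are 9 of 55472 gene rows, all 9 of which had UMIs (unique molecular identifiers, each counting 1 captured transcript). A set of 4 tumours (1 to 4) from 3 female FVB mice aged 13 to 14 weeks were profiled by droplet single-cell RNA-seq. Every mouse carried MMTV-PyMT, in which the mouse mammary tumour virus promoter drives the polyoma middle T oncoprotein in mammary epithelium, together with Rosa-tdTomato and K14Cre, a Cre driven by a keratin 14 promoter that switches on the tdTomato reporter. Tumour 1 came from several glands of mouse 1, tumour 2 from an inguinal gland of mouse 2, and mouse 3 gave both tumour 3 (a thoracic gland) and tumour 4 (an inguinal gland). No treatment, second genotype or normal gland was compared, so the comparisons are between cell types and, within mouse 3, between glands. The tissue was minced and digested, and dead cells were removed, with no sort by surface marker.

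Interleukin-1 alpha and beta signal through the same receptor, IL1R1, which recruits MyD88 and IRAK kinases and activates NF-kB, and the antagonist IL-1ra, encoded by Il1rn, occupies that receptor without signalling. IL-1 beta and IL-18 are made as inactive precursors that caspase-1 cuts in the inflammasome, whereas IL-33 is stored in nuclei of stromal and barrier cells and acts through ST2, encoded by Il1rl1. IL-6, LIF and oncostatin M share the signalling chain gp130 (Il6st), each with its own partner receptor, and act through JAK kinases and STAT3. IL-17B is an epithelial member of its family whose receptor is IL-17RB.

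Of 36162 barcodes in the 4 tumours, 36138 were kept and assigned to gates by summed UMIs of 2 genes. The gates held 20581 luminal cells (Krt8+Krt18 of at least 3), 938 basal cells (Krt5+Krt14 of at least 3), 1512 fibroblasts (Col1a1+Col3a1 of at least 10), 625 endothelial cells (Cdh5+Pecam1 of at least 2), 3005 macrophages (C1qa+C1qb of at least 5) and 355 T cells (Cd3g+Trbc2 of at least 2). A further 8286 cells met no gate, 163 met several non-luminal gates and were left out, and 410 formed an "other myeloid" gate. The tumours held 20281799 to 39370565 UMIs, with a median of 1922.5 to 3281 UMIs a barcode, and pairs of tumours shared 96 to 129 barcodes. Levels are given as CPM, the UMIs of a gene per 1000000 UMIs of all the gate's cells in a tumour. Marker genes that the gates did not use were highest in their own gate for fibroblasts, endothelial cells, macrophages and T cells: the summed list of 7 macrophage markers was at 5885 to 7339 CPM in the macrophage gate and at 19.4 to 36.0 in the luminal gate. The other myeloid gate held the macrophage list at 1163 to 1764 CPM, 5 monocyte markers at 242 to 1035 and 6 dendritic markers at 160 to 292. Of the dendritic markers, Cd209a alone was at 146 to 292 CPM. Flt3 had a median of 2.88 CPM there, and Clec9a, Xcr1, Ccr7 and Zbtb46 had medians of 0. The T and basal gates were less clean. In the T gate 233 of 355 cells (65.6%) had at least 2 UMIs of Tyrobp and Fcer1g, genes of myeloid and natural killer cells, and its macrophage list ranged from 10.9 to 180 CPM, while its own 7 markers summed to 1021 to 1395. The 7 basal markers summed to 583 to 1230 CPM in the basal gate against 13.5 to 38.5 in luminal cells, but 8 luminal markers stood at 8032 to 24157 in it and at 14842 to 35569 in luminal cells. Means ± SD and tests use sums per mouse (n = 3, with tumours 3 and 4 joined). The main fit has mouse as a block, so its p-values rest on the spread left between sums after gate and mouse. That spread is not the SD printed beside a mean. The p-values given from the fit without a filter on low counts equal those of a normal distribution for the log2 difference over its SE. They do not hold a gene's own spread over 3 mice. The tests cover these 6 gates, and the next gate below means the next among the 6.

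The genes lie in 2 close pairs and 5 single positions of GRCm38. Il1a (chromosome 2, 129299610 to 129309972, minus strand) and Il1b (chromosome 2, 129364570 to 129371139, minus strand) were 54597 bases apart, and Osm (chromosome 11, 4236420 to 4241026, plus strand) and Lif (chromosome 11, 4257557 to 4272514, plus strand) were 16530 bases apart, with 0 protein-coding genes between the members of either pair. Il1rn lies on chromosome 2 (24336853 to 24351494), Il18 on chromosome 9 (50554827 to 50581840), Il33 on chromosome 19 (29925114 to 29960718) and Il6 on chromosome 5 (30013114 to 30019981), all on the plus strand. Il1a, Il1b, Il18 and Il17b overlap genes of the other strand (Gm14023, Il1bos, Bco2 with Tex12, and Gm38165). Whether strand was used in counting is not given in the sources used here. Whether the counts of these members hold any reads of their partners was not tested.

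Promoters are shown for 2 members highest in macrophages and 2 highest in fibroblasts among the 6 tested gates: the neighbours Il1a and Il1b, and Il33 and Il6. Each is the 250 bases before the gene's start in RefSeq (build GRCm38.p6), written 5′ to 3′ on the gene's strand: chr2:129309973-129310222 (minus), chr2:129371140-129371389 (minus), chr19:29924863-29925112 (plus, the first of 2 starts listed for Il33) and chr5:30012864-30013113 (plus). Capitals mark matches to any of 5 motifs searched on both strands.
Il1a: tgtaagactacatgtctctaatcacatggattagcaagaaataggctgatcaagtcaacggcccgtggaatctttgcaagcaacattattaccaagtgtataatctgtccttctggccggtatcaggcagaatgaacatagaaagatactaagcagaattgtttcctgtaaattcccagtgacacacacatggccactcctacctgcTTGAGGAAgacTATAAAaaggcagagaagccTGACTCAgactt
Il1b: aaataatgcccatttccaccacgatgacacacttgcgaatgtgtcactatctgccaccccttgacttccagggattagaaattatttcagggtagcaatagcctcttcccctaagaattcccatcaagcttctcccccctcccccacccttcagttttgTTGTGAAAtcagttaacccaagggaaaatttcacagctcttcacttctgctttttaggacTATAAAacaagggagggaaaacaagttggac
Il33: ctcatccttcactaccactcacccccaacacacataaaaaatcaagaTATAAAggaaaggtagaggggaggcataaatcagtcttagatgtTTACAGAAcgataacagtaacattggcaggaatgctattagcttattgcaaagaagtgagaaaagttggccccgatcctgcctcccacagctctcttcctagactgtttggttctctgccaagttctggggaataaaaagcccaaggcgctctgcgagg
Il6: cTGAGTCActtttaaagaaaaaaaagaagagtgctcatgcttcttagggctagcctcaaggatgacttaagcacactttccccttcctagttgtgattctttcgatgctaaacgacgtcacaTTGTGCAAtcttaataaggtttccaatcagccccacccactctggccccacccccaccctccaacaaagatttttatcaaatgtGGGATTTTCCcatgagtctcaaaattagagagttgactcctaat
With -1 as the base before the start, a TATAAA core lay at -32 to -27 in Il1a and at -31 to -26 in Il1b, and at -203 to -198 in Il33. The Il6 window held a match to the NF-kB motif at -44 to -35, a C/EBP match (TTNNGNAA) at -128 to -121 and an AP-1 match (TGANTCA) at -249 to -243. C/EBP letters also occurred in Il1a (-43 to -36, overlapping the PU.1 core GAGGAA at -41 to -36), in Il1b (-91 to -84) and, on the minus strand, in Il33 (-159 to -152), and Il1a had an AP-1 match at -12 to -6. Of 32851 windows of the same length, 12.4% held TATAAA, 6.75% TGANTCA, 36.8% TTNNGNAA, 23.3% GAGGAA and 1.41% the NF-kB motif. The matches describe letters only, and no binding was measured.

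Il1b, the pro-inflammatory IL-1 that signals after cleavage, was a macrophage transcript in all 4 tumours. Macrophages carried Il1b at 175, 263, 216 and 202 CPM in tumours 1 to 4. Luminal cells carried it at 0.995, 1.83, 2.97 and 3.29 CPM in the same tumours. The lowest macrophage value was above every value in the luminal, basal, fibroblast, endothelial and T gates. Macrophages held 79.2% of the gene's 2066 UMIs, and the next gate by level among the 6 tested was endothelial cells (3.23 ± 5.60 CPM, n = 3, against 216 ± 44.2 in macrophages, a log2 difference of 5.63, SE 0.38, edgeR adjusted p = 2.44e-11). Other myeloid cells, which were not tested, had 124 ± 27.3 CPM. Against luminal cells, Il1b was higher by 6.99 on the log2 scale (SE 0.24, edgeR quasi-likelihood adjusted p = 3.75e-17, higher in 3 of 3 mice). A share of 19.8%, 37.4%, 30.0% and 23.8% of macrophages had an Il1b UMI (median depth 1344 to 2560 UMIs a cell), against 0.247% to 0.878% of luminal cells, which are deeper (2659 to 3671.5). With each cell thinned to 1000 UMIs the macrophage shares were 13.4%, 24.3%, 19.2% and 15.2%, and tumour 2 stayed highest.

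The small luminal Il1b level was set beside macrophage genes in the same cells. The list of 7 macrophage markers in luminal cells was at 0.474%, 0.330%, 0.491% and 0.463% of its macrophage level in tumours 1 to 4, and Il1b was at 0.569%, 0.698%, 1.38% and 1.63%. The Il1b share was above the marker share in every tumour, and the order of the tumours differed. The 363 luminal cells with at least 2 UMIs of Tyrobp and Fcer1g were 1.76% of the gate and held 122 of its 190 Il1b UMIs (64.2%). The same cells held 6 of 147 luminal Il1rn UMIs (4.08%) and 5 of 121 luminal Il18 UMIs (4.13%), against 64.2% for Il1b. The part of free RNA and doublets in these luminal levels was not tested.

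Il1a, the form that is active without cleavage, was rare and almost as restricted. Macrophages had 5.77, 8.63, 12.5 and 6.88 CPM in tumours 1 to 4, and held 69 of all 73 UMIs. Luminal cells had 3 UMIs in the 4 tumours, other myeloid cells 1, and the basal, fibroblast, endothelial and T gates 0. Pooled over tumours, the macrophage level was 249 times the luminal level (exact 95% interval 81.6 to 1234, counting error only). With 3 UMIs over each gate as the floor, it was 11.3 times the floor of basal cells, 13.8 times that of fibroblasts, 5.29 times that of endothelial cells and 2.52 times that of T cells. The exact 95% lower limits of the ratios to these gates were 8.98, 10.9, 4.19 and 2.00. Il1a did not pass the filter on low counts. In the fit without that filter it was higher in macrophages than in luminal cells by 7.35 (log2, SE 0.59, edgeR adjusted p = 2.75e-34), a fit in which 9.12% of all genes were higher in macrophages. That p-value does not hold the spread of Il1a between mice.

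Il1rn, the receptor antagonist, was shared between macrophages and luminal cells and was not detected in fibroblasts. Macrophages had 11.5, 13.6, 16.1 and 18.2 CPM, and luminal cells 1.09, 2.28, 1.19 and 1.86 CPM. The macrophage values lay above the luminal values in every tumour, but by far less than for Il1b, and because luminal cells were so many they held 41.4% of the 355 UMIs and macrophages 33.0%. Macrophages exceeded luminal cells by 3.37 (log2, SE 0.37, edgeR adjusted p = 1.20e-07, 3 of 3 mice) and the next gate, basal cells (2.52 ± 2.63 CPM), by 2.25 (SE 0.49, edgeR adjusted p = 0.000987). Fibroblasts had 0 UMIs of Il1rn among 4563828, against 147 in luminal cells. Their level was at least 2.73-fold lower than that of luminal cells and at least 23.4-fold lower than that of macrophages, and the luminal difference passed the test (edgeR adjusted p = 0.00697), but not when cells meeting several gates were put in the first gate listed (log2 -1.55, adjusted p = 0.117). Other myeloid cells had the highest level of any gate, 39.1 ± 17.7 CPM against 14.0 ± 2.77 in macrophages, a difference that was not tested.

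Il18, whose product drives interferon gamma from lymphocytes, was highest in macrophages and second in fibroblasts among the 6 gates tested, while other myeloid cells, which were not tested, had 30.3 ± 27.9 CPM. Macrophages had 19.0, 16.0, 19.4 and 14.3 CPM in tumours 1 to 4. Fibroblasts had 2.29, 15.2, 2.40 and 6.07 CPM, with tumour 2 close to its macrophage level and the others well under theirs. Luminal cells had 0.834 to 2.10 CPM, below every fibroblast value. Macrophages exceeded luminal cells by 3.93 (log2, SE 0.35, edgeR adjusted p = 1.46e-09), fibroblasts exceeded them by 2.19 (SE 0.47, edgeR adjusted p = 0.000481), and macrophages exceeded fibroblasts by 1.74 (SE 0.42, edgeR adjusted p = 0.00165), each in 3 of 3 mice where luminal cells were the base. Fibroblasts and basal cells were not separated (1.22, SE 0.62, edgeR adjusted p = 0.139). The fibroblast count behind this is 25 UMIs.

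Il33, the nuclear alarmin, was a fibroblast transcript in every tumour and an epithelial one mainly in tumour 3. Fibroblasts had 160.5, 138, 87.3 and 123 CPM in tumours 1 to 4. Basal cells had 9.54, 1.15, 72.4 and 7.93 CPM, and luminal cells 4.34, 0.355, 18.6 and 1.52 CPM. Every fibroblast value was above every basal and luminal value, and in both epithelial gates tumour 3 was far above the other 3. Fibroblasts exceeded luminal cells by 5.24 (log2, SE 0.51, edgeR adjusted p = 6.97e-09) and basal cells by 2.78 (SE 0.60, edgeR adjusted p = 0.000752). Basal cells had 2, 1 and 120 Il33 UMIs in mice 1 to 3. The levels of mice 1 and 2 were below their floors of 3 counts (14.3 and 3.45 CPM). On these counts basal cells exceeded luminal cells by 2.46 (SE 0.60, edgeR adjusted p = 0.0110, 3 of 3 mice). This call was lost by DESeq2 (1.95, adjusted p = 0.367), without the mouse as a block (2.37, adjusted p = 0.152), without tumour 1 (2.58, adjusted p = 0.0875), tumour 3 (1.85, adjusted p = 0.263) or tumour 4 (2.31, adjusted p = 0.0739) and with both tumours of mouse 3 left out (1.05, adjusted p = 0.928), the last 5 by edgeR. A share of 18.9%, 36.8%, 18.5% and 24.8% of fibroblasts had an Il33 UMI, against 0%, 0%, 0.410% and 1.08% of endothelial cells, whose median depths were 1440 to 2703 UMIs against 1812 to 3469.5 in fibroblasts.

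The epithelial Il33 of tumour 3 was set beside the fibroblast markers in the same cells. In its basal gate the summed 7 fibroblast markers were at 4.35% of the fibroblast level and Il33 was at 82.9%. In luminal cells of the 4 tumours the marker list was at 0.111% to 0.563% of the fibroblast level, while Il33 ranged from 0.258% to 21.2%. The basal gate's fibroblast list reached 434 CPM at its highest, against 12.6 at its lowest, so the tumour's basal cells also carried the most fibroblast marker RNA among the tumours. The part of that RNA in the level was not tested.

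Il6, the founding member of its family, was close to the detection limit, with 56 UMIs in all. Fibroblasts had 6.88, 16.5, 0.480 and 1.52 CPM in tumours 1 to 4, from 18 UMIs. The values of tumours 3 and 4, both of mouse 3, were below those of the other mice. Luminal cells had 3 UMIs in 82059413, which put the pooled fibroblast level at 108 times theirs (exact 95% interval 31.5 to 572). Tumour 2 gave 12 of the 18 UMIs, and without it the pooled fibroblast level fell from 3.94 to 1.56 CPM and the ratio was 37.7 (6.74 to 382). Without tumour 4, which held 2 of the 3 luminal UMIs, the ratio was 304 (47.2 to 12750). Il6 did not pass the low-count filter. Without the filter it was higher than in luminal cells in fibroblasts (log2 6.53, SE 0.85, edgeR adjusted p = 4.23e-13), endothelial cells (5.38, SE 1.33, adjusted p = 0.000758) and T cells (5.55, SE 1.81, adjusted p = 0.0365), the last from 2 UMIs. Both of these lay in T-gate cells with at least 2 UMIs of Tyrobp and Fcer1g. In that fit 11.2%, 6.2% and 3.27% of all genes were higher in these 3 gates, and fibroblasts, T cells and endothelial cells were not separated from each other. Its p-values do not hold the spread of Il6 between mice. Mural cells, the pericytes and smooth muscle of vessels, had 21.3 ± 25.4 CPM from 4 UMIs, and other myeloid cells 10.5 ± 10.4 CPM from 9 UMIs.

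Lif, which sustains STAT3 signalling through its receptor LIFR and gp130, was at similar levels in the fibroblasts of the 4 tumours. They had 6.88, 8.27, 5.28 and 9.87 CPM in tumours 1 to 4. Luminal cells had a mean of 0.840 ± 0.379 CPM yet held 56.8% of the 139 UMIs by their number, against 23.7% for fibroblasts. Every fibroblast value was above the luminal range of 0.452 to 1.52 CPM. In the fit without a low-count filter, which Lif did not pass, fibroblasts exceeded luminal cells by 2.81 (log2, SE 0.46, edgeR adjusted p = 1.83e-08) and the next gate, endothelial cells, by 2.79 (SE 0.88, adjusted p = 0.0183), where 5.44% of all genes were lower in endothelial cells than in fibroblasts. The p-values of this fit do not hold the spread of Lif between mice.

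Osm, which acts through OSMR on stromal and epithelial cells, was the neighbour of Lif on the chromosome but not in its cell of origin. Macrophages had 32.2, 52.4, 34.9 and 31.9 CPM in tumours 1 to 4. Luminal cells had 0.0905, 0.118, 0.0595 and 0.442 CPM. No macrophage value came near any luminal value, and macrophages held 81.4% of the 349 UMIs while other myeloid cells (31.1 ± 16.2 CPM) held 8.60%. Macrophages exceeded luminal cells by 7.90 (log2, SE 0.35, edgeR adjusted p = 3.03e-15) and T cells, the next of the 6 tested gates, by 4.22 (SE 0.67, adjusted p = 4.66e-05). Osm UMIs were found in 4.88%, 13.6%, 8.60% and 7.36% of macrophages, against 0.0258% to 0.154% of luminal cells.

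Among the 6 tested gates Il17b was highest in basal cells. Basal cells had 42.9, 23.0, 149 and 40.5 CPM in tumours 1 to 4, cells without a gate 38.8, 9.33, 79.3 and 17.6 CPM, and luminal cells 4.43, 9.31, 8.62 and 6.18 CPM. The basal value was above the luminal value in every tumour, least so in tumour 2. Among cells without a gate, the 425 with at least 2 UMIs of the 7 fibroblast markers had 178, 0, 414 and 34.9 CPM, above the basal gate in tumours 1 and 3, whereas the fibroblast gate had 1.57 ± 2.72. Basal cells exceeded luminal cells by 2.86 (log2, SE 0.35, edgeR adjusted p = 5.40e-06, 3 of 3 mice), and T cells (8.69 ± 10.7 CPM), the next gate, by 2.21 (SE 0.61, adjusted p = 0.0149). With both tumours of mouse 3 left out the basal call was lost (1.98, edgeR adjusted p = 0.0718). The T gate had 11 UMIs, 5 of them in 1 cell of tumour 4, and its basal marker list ranged from 6.12 to 409.6 CPM between tumours. Fibroblasts were lower than luminal cells by 1.47 (log2 -1.47, SE 0.57, edgeR adjusted p = 0.0380), a call lost in 7 of the alternatives tried (edgeR adjusted p 0.0553 to 0.222), among them those without tumour 1, 2 or 4. An Il17b UMI was present in 7.29%, 10.9%, 13.4% and 8.71% of basal cells and in 0.271% to 0.988% of macrophages, where basal cells had median depths of 1739.5 to 6183 UMIs and macrophages of 1344 to 2560. Among luminal cells it was present in 37 of 3647, 270 of 7856, 114 of 3872 and 93 of 5206. Basal cells were deeper than luminal cells in tumour 2 (6183 against 3500.5) and shallower in tumours 1, 3 and 4.

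**Figure D1:**
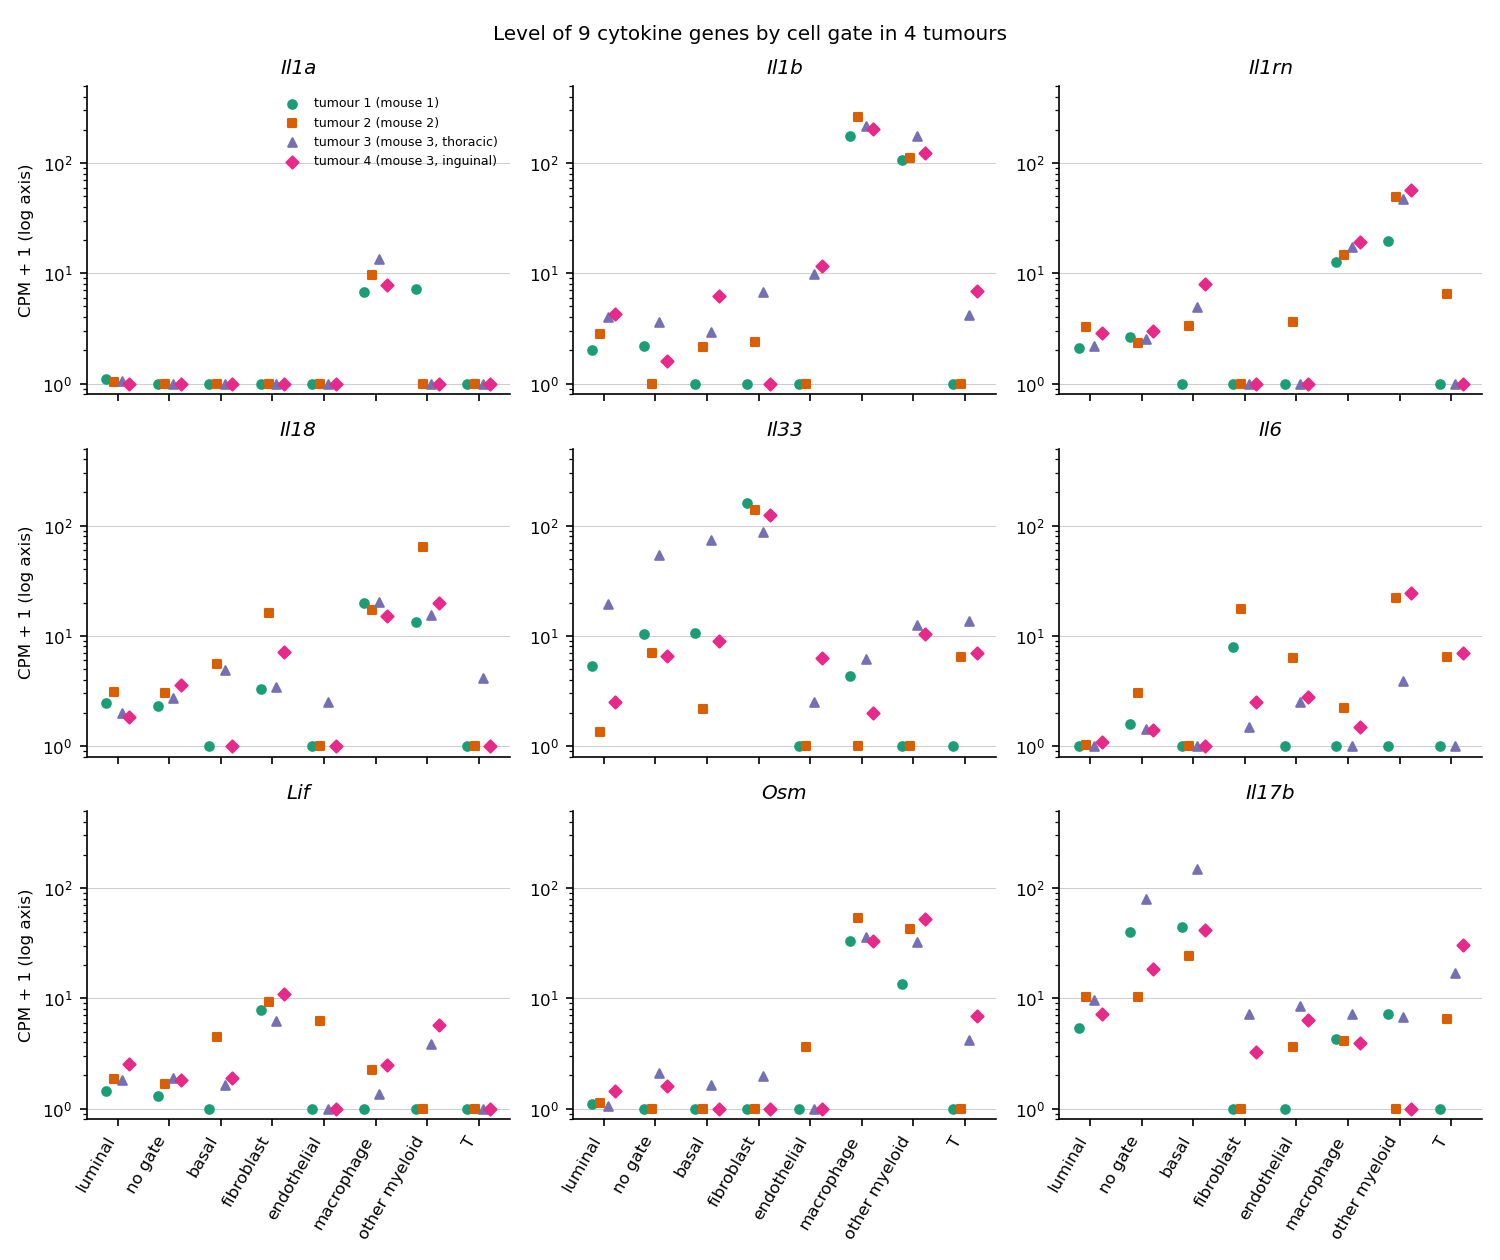
Level of each of the 9 genes, as CPM plus 1 on a log axis, in 8 gates (x axis), with 1 point for each tumour. The 4 macrophage points of Il1b (175 to 263) and Osm (31.9 to 52.4) and the 4 fibroblast points of Il33 (87.3 to 160.5) sit above the luminal points of the same gene, and tumour 3 is the highest point of Il17b and Il33 in the basal gate.

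Against luminal cells, 6 of the 9 members could be tested in each gate (Il1a, Il6 and Lif had too few UMIs), and each count is given with the share of all 10303 tested genes that passed the same way at an adjusted p under 0.05 in edgeR's quasi-likelihood test. In basal cells 2 of 6 rose (Il17b and Il33), where 4.74% of all genes rose, and 0 fell, where 2.46% did. In fibroblasts 2 rose (Il33 and Il18), where 26.6% of all genes rose, and 2 fell (Il1rn and Il17b), where 22.4% did. In macrophages 4 rose (Il1b, Osm, Il18 and Il1rn), where 23.3% of all genes rose, and 0 fell, where 20.4% did. In endothelial cells 0 of 6 passed, where 17.9% of all genes rose and 15.1% fell. At an unadjusted p under 0.05 there was 1, Il1b (log2 1.36, SE 0.61, higher in 1 of 3 mice, edgeR adjusted p = 0.0907), and DESeq2 also called 0. Il1b was called there without tumour 2 (1.54, edgeR adjusted p = 0.0307). In T cells 0 of 6 passed, where 9.66% of all genes rose and 6.91% fell. At an unadjusted p under 0.05 there was 1, Osm (log2 3.68, SE 1.46, higher in 1 of 3 mice, edgeR adjusted p = 0.0948), which DESeq2 called (3.88, adjusted p = 0.00790, where it called 11.6% of all genes higher). That value rests on 2 UMIs, 1 in each tumour of mouse 3, both in cells with at least 2 UMIs of Tyrobp and Fcer1g. In the comparisons of each top gate with the next one, 15.4% of all genes were higher in macrophages than in endothelial cells (Il1b), 19.3% than in basal cells (Il1rn), 22.3% than in fibroblasts (Il18) and 10.9% than in T cells (Osm), 20.1% were higher in fibroblasts than in basal cells (Il33), and 5.39% in basal than in T cells (Il17b). Below the top gate of each member, no neighbours in the order of levels were separated by their test.

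**Figure D2:**
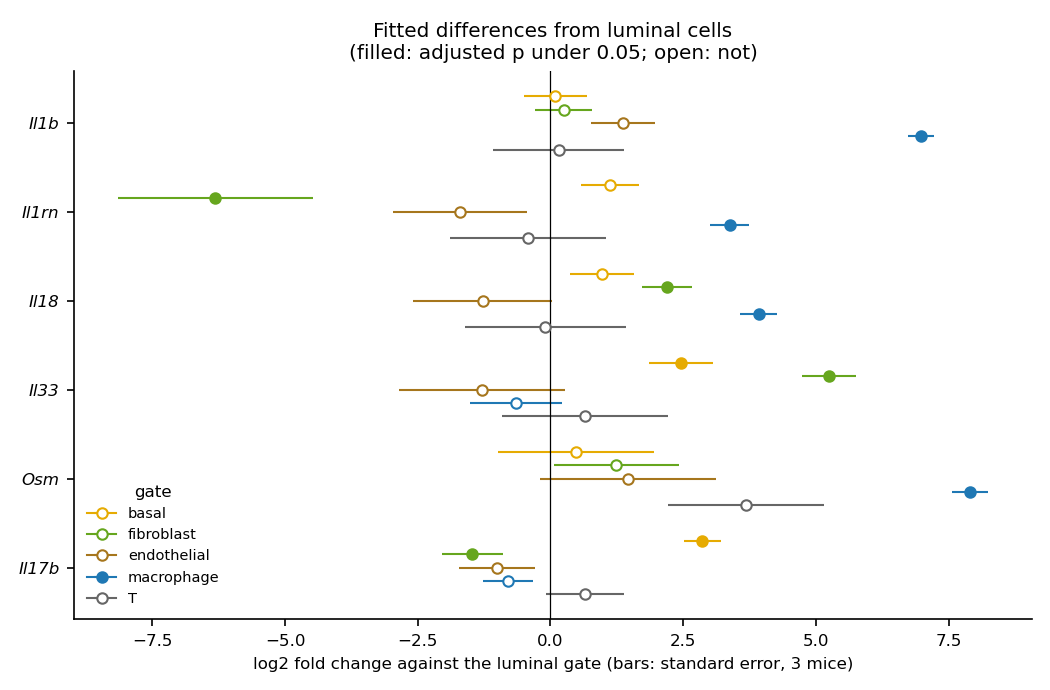
Fitted log2 fold change against the luminal gate (x axis) of the 6 tested members (rows) in 5 gates, with standard errors over 3 mice as bars, filled where the adjusted p was under 0.05. The points farthest to the right are Osm (7.90) and Il1b (6.99) in macrophages and Il33 (5.24) in fibroblasts, and the wide bar of Il1rn in fibroblasts (-6.32) belongs to a gate with 0 UMIs, so that fitted value is no bound.

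Genes with the most similar pattern over the 24 sums of 6 gates in 4 tumours (Pearson's r, 8989 genes compared, sums that share libraries and gates) were described for each member. Among the 3 genes closest to Il1b were Wfdc17 (0.951) and Spi1 (0.946), and Osm was closest to Cd74 (0.953), H2-DMa (0.952) and Cd86 (0.950). Spi1 encodes the macrophage factor PU.1, while Cd74 and H2-DMa serve MHC class II loading. Il1a was closest to Gm5150 (0.991), Il10ra (0.990) and Cd33 (0.985), and Il33 to the fibroblast proteoglycan gene Dcn (0.939). Il1rn was closest to Atf3 (0.886), Il18 to Tnfsf13b (0.895), which encodes the B cell factor BAFF, Lif to Vkorc1 (0.878), Il17b to Rcc2 (0.83) and Il6, on few UMIs, to Jak2 (0.788).

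Within macrophages, Il1b was the 1 member of 4 tested that rose with MHC class II. Cells were split at each tumour's median share of H2-Aa, H2-Ab1 and H2-Eb1 among their UMIs, which makes 2 ranges and no cell types. Il1b was at 301, 492, 411 and 336 CPM in the upper ranges of tumours 1 to 4 and at 86.9, 114, 81.2 and 85.8 CPM in the lower ranges. The 2 sets of values did not overlap. The upper range was 4.58-fold higher (SE 0.13 on the log2 scale, edgeR adjusted p = 2.03e-07, 3 of 3 mice). Of 4 members tested, 1 rose, where 2.6% of 6117 genes did, and 0 fell, where 1.28% did. Osm was at 32.1, 56.4, 34.2 and 38.3 CPM in the upper ranges and at 32.2, 49.8, 35.3 and 26.5 in the lower, and did not pass (0.29, SE 0.19, adjusted p = 0.520). Il18 (0.13, SE 0.29, adjusted p = 0.901) and Il1rn (-0.28, SE 0.30, adjusted p = 0.742) did not pass either, and Il1rn was lower in the upper range in tumours 1 to 3 and higher in tumour 4.

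**Figure D3:**
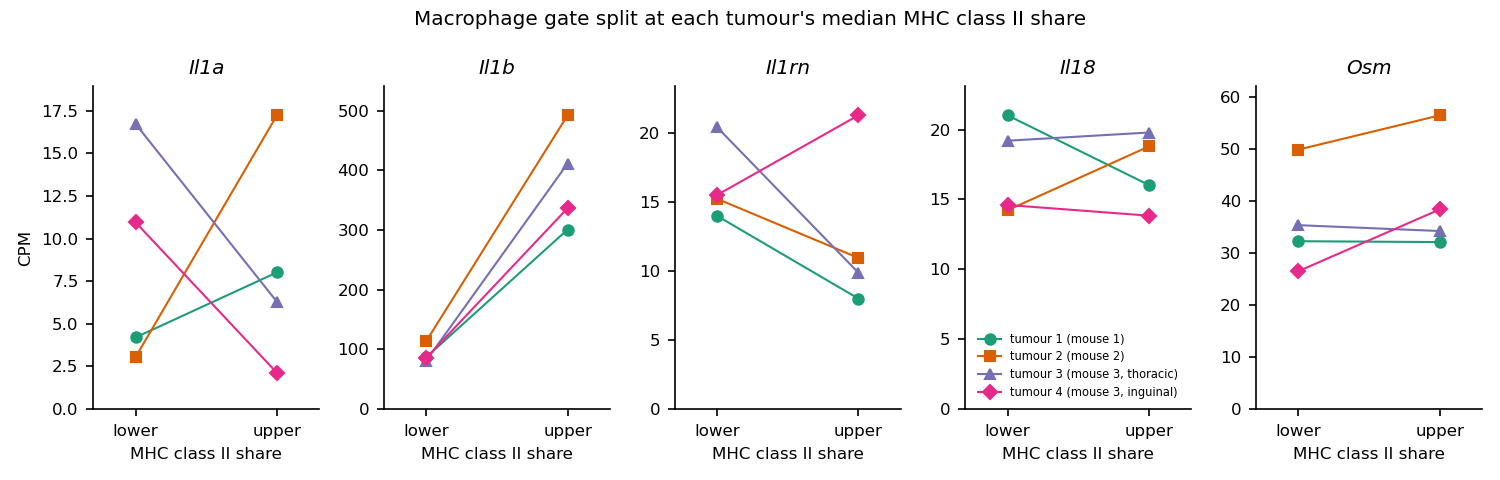
Level as CPM (y axis, from 0) of 5 members in macrophages with a lower or upper MHC class II share (x axis), with 1 line for each tumour. All 4 Il1b lines rise, from 81.2 to 114 up to 301 to 492, while the lines of Il1a, Il1rn, Il18 and Osm go in differing directions.

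The 2 ranges also differed in depth and in markers of other myeloid cells. Upper cells had fewer UMIs (medians 1174.5, 2288, 1974.5 and 2060 against 1577, 3087, 2684.5 and 2387). The 5 monocyte markers summed to 42.6 to 152 CPM in upper and 16.1 to 32.5 in lower cells, the 6 dendritic markers to 2.00 to 4.50 and 0 to 1.40, the 6 neutrophil markers to 11.0 to 120 and 32.2 to 207, and the 8 luminal markers to 2210 to 4880 and 3383 to 11624. The part of these in the Il1b difference was not tested. Of 25 pathway genes tested between the ranges 5 rose, namely Nlrp3 (1.12, SE 0.17), the inflammasome sensor, Cxcl2 (1.12, SE 0.15) and Cxcl1 (0.75, SE 0.19), neutrophil chemokines, Socs3 (1.06, SE 0.18), a STAT3 feedback inhibitor, and Nfkbiz (0.72, SE 0.17), an NF-kB cofactor. The 3 that fell were Saa2 (-1.45), Saa1 (-1.26) and Lcn2 (-0.84), acute-phase genes whose products are secreted. The part of the luminal marker RNA, which was higher in the lower range, in these 3 falls was not tested.

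In single macrophages the share with Il1b was lower with Osm than without it in tumour 1 and higher in tumours 2 to 4. Among macrophages with an Osm UMI, 16.7%, 37.7%, 31.8% and 26.3% also had Il1b, against 20.0%, 37.3%, 29.8% and 23.6% of those without Osm. The cells with Osm were deeper in every tumour, by medians of 1394, 3119, 2821 and 2539 UMIs against 1342, 2496, 2240 and 2167. No test was made, since cells of 1 tumour are not replicates.

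Within fibroblasts, Il33 did not separate adventitial-type from matrix-type cells. Cells with more Clec3b+Dpt had 213, 134, 122 and 117 CPM in tumours 1 to 4, and cells with more Postn+Lrrc15 had 135, 146, 103 and 123 CPM. The first kind was higher in tumours 1 and 3 and the second in tumours 2 and 4. Il33 was the 1 member tested and did not pass (log2 0.17, SE 0.22, edgeR adjusted p = 0.767, where 5.68% of 3501 genes rose and 6.03% fell, with 0 members at an unadjusted p under 0.05 and 0 by DESeq2). Il6 was at 15.2, 32.6, 0 and 13.0 CPM in the first and 3.55, 7.17, 0.722 and 0 in the second, and Lif at 15.2, 0, 0 and 0 against 7.10, 14.3, 7.22 and 12.4, on so few UMIs that neither passed without the low-count filter (Il6 2.35, adjusted p = 0.382, and Lif -2.77, adjusted p = 0.417, both by edgeR). Cxcl1 (1.97, SE 0.59) and Socs3 (1.34, SE 0.29), both induced by IL-1 or IL-6 family cytokines, and Jak1 (0.88, SE 0.21) rose in the Clec3b+Dpt cells, and Timp1 fell (-1.38, SE 0.19), as 4 of 16 pathway genes tested.

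Il33 was lower in luminal cells that express serum amyloid A, a set of acute-phase genes that IL-1 and IL-6 family cytokines are known to induce. Luminal cells with at least 3 Saa1, Saa2 and Saa3 UMIs had 2.36, 0.549, 7.43 and 0.239 CPM of Il33 in tumours 1 to 4, and those with 0 had 5.18, 0.137, 22.3 and 2.17 CPM. The cells with Saa were lower in tumours 1, 3 and 4 and higher in tumour 2, where both levels were under 1 CPM. The difference of -1.64 (log2, SE 0.32, edgeR adjusted p = 0.0206, lower in 2 of 3 mice) was 1 of 5 members tested, where 1.33% of 13119 genes rose and 1.11% fell. The call was lost without the mouse as a block (-1.25), without tumour 3 (-1.54, adjusted p = 0.246), without tumour 4 (-1.42, adjusted p = 0.0520) and without both (-0.81, adjusted p = 0.817). In the same comparison Hp (1.68, SE 0.34), Osmr (0.82, SE 0.13), which encodes the oncostatin M receptor, Bcl3 (0.67, SE 0.14) and Lcn2 (0.63, SE 0.06) rose and Pycard fell (-0.42, SE 0.08) among 41 pathway genes tested.

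Within the basal gate, Il17b was highest where luminal keratins were low. Basal cells with under 3 Krt8+Krt18 UMIs had a mean of 151 ± 106 CPM of Il17b over mice (248 UMIs) and those with at least 3 had 25.8 ± 11.5 (56 UMIs). In tumours 1 to 4 the first kind had 47.0, 148, 289 and 155 CPM, from 5, 6, 205 and 32 UMIs. The second kind had 38.7, 16.9, 29.2 and 15.1 CPM, so tumour 1 differed little. Il33 was at 18.8, 0, 120 and 34.0 CPM in the first and at 0, 1.20, 31.6 and 2.15 in the second in tumours 1 to 4. No test was made, since mouse 2 had only 14 cells of the first kind. Luminal, basal and ungated cells with at least 2 UMIs of the 8 luminal markers were also binned by keratin UMIs, and cells with fewer were left out. Among these, tumour 3 reached 579 CPM of Il17b in cells with 1 to 2 Krt5+Krt14 UMIs and 0 of Krt8+Krt18. It had 366 in cells with 3 or more and 0, but 29.4 in cells with 3 or more of both.

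**Figure D4:**
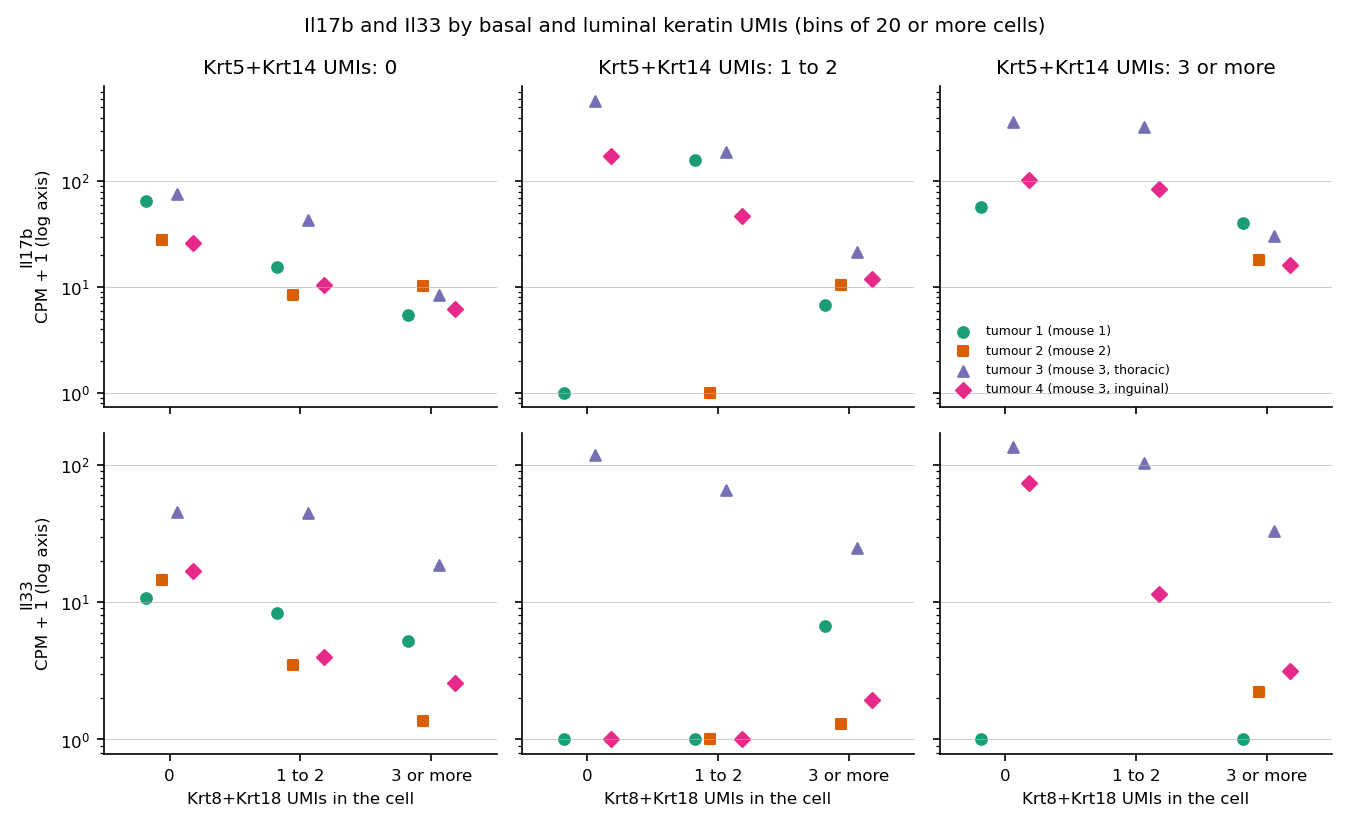
Il17b (upper row) and Il33 (lower row) as CPM plus 1 on a log axis, in cells binned by Krt5+Krt14 UMIs (columns) and Krt8+Krt18 UMIs (x axis), with 1 point for each tumour and bins of at least 20 cells. The cells are luminal, basal or ungated, with at least 2 UMIs of the 8 luminal markers. Il17b of tumour 3 falls from 579 and 366 at 0 Krt8+Krt18 UMIs to 29.4 where both keratin pairs reach 3, and tumour 3 (triangles) is the highest Il33 point of every bin.

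Much of Il17b sat in a few cells with high counts. Cells with at least 5 Il17b UMIs, a minimum chosen after the values were seen, numbered 61 (18, 0, 34 and 9 in tumours 1 to 4) and held 655 of 1749 UMIs. Of these cells 41 met no gate, 12 were basal, 6 luminal, 1 a macrophage and 1 a T cell. The contractile gene Acta2, 1 of the 7 basal markers, had a UMI in 11 of 18, 28 of 34 and 5 of 9 of them, and Cnn1, another, in 4, 23 and 3. Krt5, a gene of the basal gate, was found in 2, 19 and 0 of them. Ecrg4 was found in 18 of 18, 29 of 34 and 5 of 9, at 3116, 3394 and 1053 CPM against 52.6, 171 and 79.3 CPM in luminal, basal and ungated cells without Il17b. Over all cells with an Il17b UMI the gene was not higher everywhere: in basal cells it was at 73.2 CPM with Il17b against 153 without in tumour 1 and at 12.3 against 91.3 in tumour 2, and in luminal cells of tumour 2 at 35.3 against 58.3. It was higher with Il17b in the other 9 of 12 tumour-by-gate groups of luminal, basal and ungated cells. The 7 basal markers summed to 1255, 7044 and 4031 CPM in the high cells against 47.6, 116 and 57.6 in cells without Il17b, and the 8 luminal markers to 1401, 1775 and 4757 against 29249, 13376 and 16434. The basal list was also at 2241 to 3883 CPM in the mural gate and 342 to 809 in fibroblasts, against 583 to 1230 in the basal gate. It therefore does not tell basal from mural cells. The mural gate itself held 1 Il17b UMI (1.31 ± 2.26 CPM, n = 3). The type of the high cells was not tested. A single basal cell of tumour 3 held 61 Il17b UMIs, and without it the basal level of that tumour was 110 CPM in place of 149.

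**Figure D5:**
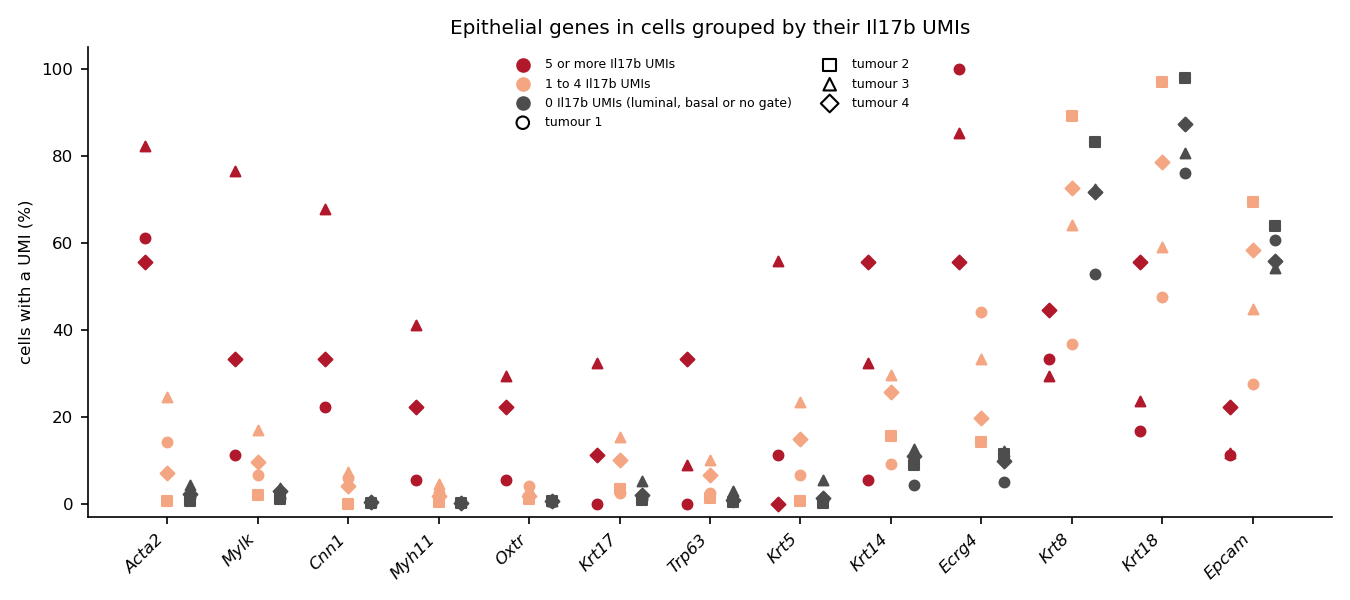
Share of cells with a UMI (y axis, percent) of 13 genes, the 7 basal markers among them (x axis), in cells with 5 or more, 1 to 4 or 0 Il17b UMIs (colours), by tumour (symbols). Acta2 was found in 11 of 18, 28 of 34 and 5 of 9 of the cells with 5 or more, and tumour 2 has no such cell.

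The 2 glands of mouse 3 differed in epithelial Il33 and Il17b, while the intervals of the 5 members highest in macrophages included 1 there. Il33 was 9.13 times as high in basal cells of the thoracic as of the inguinal tumour (exact 95% interval 4.64 to 20.5), 12.2 times in luminal cells (8.42 to 18.3) and 9.39 times in cells without a gate (6.33 to 14.4), but 0.710 times in fibroblasts (0.572 to 0.883). Il17b was 3.69 times as high in basal cells (2.68 to 5.18), 4.50 times in ungated cells (3.56 to 5.75) and 1.39 times in luminal cells (1.09 to 1.78). In the thoracic tumour, 152 of 229 basal Il17b UMIs lay in 11 cells and 259 of 362 ungated ones in 21 cells. The intervals take UMIs as independent, so those of Il17b are too narrow. The epithelial and fibroblast ratios of Il33 lay on opposite sides of 1. Il33 in macrophages was at 14 against 2 UMIs, a ratio of 5.23 (1.20 to 47.4). In macrophages the ratio was 1.07 for Il1b (0.942 to 1.22), 1.09 for Osm (0.788 to 1.52), 1.36 for Il18 (0.852 to 2.23), 0.888 for Il1rn (0.560 to 1.41) and 1.81 for Il1a (0.948 to 3.66). There is 1 tumour a gland, so gland and tumour cannot be told apart, and the intervals cover counting error only.

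Of 3 IL-1 family receptors tested, 2 rose and 1 fell in fibroblasts against luminal cells. Il1r1, the signalling receptor of IL-1, was at 46.2 ± 15.0 CPM in fibroblasts, 10.4 ± 9.41 in endothelial cells and 1.08 ± 0.571 in luminal cells, and rose against luminal cells by 5.37 (log2, SE 0.41, edgeR adjusted p = 1.29e-10) and 3.33 (SE 0.63, adjusted p = 0.000198, 2 of 3 mice). Il1r2, the decoy that binds IL-1 without signalling, rose in fibroblasts (5.94, SE 0.61, 20.9 ± 5.96 CPM) and in macrophages (4.69, SE 0.62, 5.96 ± 3.39 CPM). Sigirr, an inhibitory receptor of the family, fell in fibroblasts (-2.12, SE 0.35) and macrophages (-1.02, SE 0.26) and rose in endothelial cells (0.85, SE 0.28). The IL-33 receptor gene Il1rl1 had 7 UMIs in fibroblasts, 7 in luminal cells, 10 in other myeloid cells and 4 in T cells. It had at most 7 UMIs in each of the 6 gates tested. Il18r1, the IL-18 receptor, was at 7.52 ± 6.58 CPM in T cells, 5.71 ± 3.41 in basal and 2.55 ± 0.745 in luminal cells.

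Of 5 IL-6 family receptors tested, 4 rose in fibroblasts and 0 fell, and in macrophages 3 rose and 2 fell. The shared chain Il6st was at 75.1 ± 6.25 CPM in fibroblasts and 44.6 ± 18.0 in endothelial cells against 12.9 ± 2.34 in luminal cells (log2 2.54, SE 0.19, and 1.78, SE 0.24). It was lower in macrophages (-0.68, SE 0.25). Il6ra, the IL-6-binding chain, was at 26.3 ± 1.92 CPM in macrophages against 4.93 ± 2.36 in luminal cells (2.77, SE 0.27, edgeR adjusted p = 7.74e-09), and Il6st was at 6.77 ± 0.874 CPM there. Osmr was at 43.7 ± 5.84 CPM in fibroblasts, 30.7 ± 5.32 in luminal cells and 10.5 ± 4.77 in macrophages, the main source of Osm (fibroblasts 0.49, SE 0.19, macrophages -1.38, SE 0.21). Lifr rose in fibroblasts (1.47, SE 0.31) and macrophages (0.81, SE 0.30, 2 of 3 mice), and Il11ra1, the IL-11 receptor, rose in fibroblasts by 3.80 (SE 0.14).

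The IL-17B receptor gene Il17rb was almost unseen, with 35 UMIs in luminal cells, 3 in basal cells, 1 in macrophages and 0 in fibroblasts, endothelial cells and T cells. Il17ra, the chain shared in the family, was at 13.9 ± 2.30 CPM in macrophages and 9.72 ± 2.88 in fibroblasts against 4.07 ± 0.550 in luminal cells (log2 1.99, SE 0.26, and 1.48, SE 0.31). Il17re, an epithelial IL-17C receptor, fell in fibroblasts (-2.29, SE 0.23), macrophages (-1.59, SE 0.19) and endothelial cells (-1.11, SE 0.24).

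Of 69 receptor, signalling and target genes in the lists, 41 were tested against luminal cells. The shares of all genes given above for these comparisons are the background. In fibroblasts 17 rose and 11 fell, in macrophages 16 and 9, in endothelial cells 7 and 6, in basal cells 2 and 2, and in T cells 2 and 1. Of 10 genes of IL-1 processing and receptor signalling tested, 6 were higher in macrophages, 0 lower and 4 did not pass, led by Nlrp3 (7.39, SE 0.24) and Gsdmd (5.80, SE 0.29), which encodes the pore-forming gasdermin D. The target genes Cxcl2 (6.79, SE 0.30), Cxcl1 (2.15, SE 0.20), Nfkbiz (1.42, SE 0.15) and the feedback gene Socs3 (1.05, SE 0.19) also rose there, and Lcn2 fell (-1.66, SE 0.17). Fibroblasts were led by Timp1 (6.41, SE 0.25), a metalloproteinase inhibitor and target of IL-6 family cytokines. In them Saa1 (-2.79, SE 0.79), Saa2 (-2.62, SE 0.88) and Lcn2 (-2.62, SE 0.18) fell. Basal cells had higher Hp (2.03, SE 0.45) and Timp1 (1.34, SE 0.28) and lower Pycard (-0.63, SE 0.13) and Lcn2 (-0.56, SE 0.17).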

How the data were processed

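Droplet single-cell RNA-seq was made of 4 tumours of 3 mice. The authors deposited raw UMI counts per gene and barcode for each tumour, made with Cell Ranger 2.2.0 on mm10 (GRCm38) after FastQC, per the submitters' processing notes. Cells needed 300 genes and at most 15% mitochondrial UMIs, which left out 24 barcodes, and doublets were not called. Gates other than luminal took precedence. Raw UMIs were summed per mouse and gate and tested with edgeR 4.0.16 (R 4.3.3) by quasi-likelihood with TMM, filterByExpr, mouse as a block and Benjamini-Hochberg adjustment over all genes tested (10303 for gates, the 12 gate genes left out), with calls at 0.05. Groups needed 20 cells in every mouse, so basal cells split by luminal keratins and endothelial cells split by tip genes were not tested. SE is the size of the log2 fold change over the root of F. Intervals for shares are exact Clopper-Pearson at 95%, and intervals and the floor of 3 counts cover counting error only. DESeq2 1.42.0 and 15 other settings were alternatives. The procedure was tested on simulated data. Members, lists and gates were chosen with earlier results of these data known. Every member was described in every gate. Pathway genes named were the 3 highest and 3 lowest past the threshold with 1 direction in 3 of 3 mice, plus receptors of the members, and others were named after their values were seen. RefSeq promoters matched 4 of the 4 members shown. Some genes that these rules name are not reported here.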

Additional observations from a re-analysis of the deposited data

Results flagged for a closer look

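With 4 tumours in a gate, a tumour was picked out where its gap to the nearest other one took up most of the range of the 4. Of 27 member-by-gate groups tested in this way, 5 had such a tumour. The cut picks about 1 in 20 for 4 independent normal values. Tumours 3 and 4 share a mouse and some levels rest on few UMIs, so the rate by chance here is not known. In basal cells, tumour 3 was the highest for Il17b (149 CPM) and for Il33 (72.4 CPM). In macrophages, tumour 3 was the highest for Il17b (6.24 CPM, 17 UMIs, of which 11 lay in 1 cell), and tumour 2 was the highest for Osm (52.4 CPM). In luminal cells, tumour 4 was the highest for Osm (0.442 CPM, 9 UMIs).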

How the results depend on the processing

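Of 575 recomputed log2 fold changes of single members, 550 kept their side of the threshold, 19 lost it, 6 passed it newly and 0 called ones changed sign. The counts of members called against luminal cells moved as follows. With DESeq2, 1 was called in basal cells (2 by edgeR) and 1 in T cells (0 by edgeR). Without the replicate block for mouse, 1 was called in basal cells and 0 between luminal cells with and without Saa (1 with it). Without a filter on low counts, 1 was called in endothelial and 1 in T cells (0 with it). With cells of several gates put in the first gate listed, 2 were called in endothelial cells. Without fibroblasts that also met the luminal minimum, 2 of 4 calls were left in fibroblasts, where Il1rn was not tested. Leaving out 1 tumour or both tumours of mouse 3 gave 0 to 2 calls in basal cells, 2 to 4 in fibroblasts, 0 to 1 in endothelial cells, 2 to 5 in macrophages and 0 to 1 for the Saa split. The lowest basal count came without mouse 3, the lowest fibroblast counts without mouse 3 or tumour 4, and the lowest macrophage count without mouse 3, where Il1rn and Il18 were not tested. For the other losses the cause was not tested.

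Counts over all genes moved by more than 1.5 times in these cases. Basal cells against luminal cells had 741 calls, 1166 without the low-count filter, 298 without the block, 445 without tumour 1, 487 without tumour 3 and 152 without mouse 3. Without mouse 3 fibroblasts went from 5052 to 2817, endothelial cells from 3400 to 1916, macrophages from 4500 to 2509 and T cells from 1707 to 743. The MHC class II ranges had 237, and 101 with DESeq2, 409 without the filter, 21 without the block, 376 with tumours as units, and 43, 117 and 358 without tumours 1, 2 and 4. The Saa split had 320, and 152 with DESeq2, 673 without the filter, 0 without the block, 622 with tumours as units and 980 without tumour 1. The fibroblast split had 410, and 245 with DESeq2 and 261 without tumour 4. In T cells 58.3% of calls were higher by edgeR and 73.2% by DESeq2. Without the low-count filter the median log2 difference of all genes was -0.28 to -0.73 in the 5 gates.

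The mouse block follows from the labels, since both groups of each comparison come from the same 3 mice. A doubled gate minimum in endothelial cells and in the fibroblast split (12 cells left in a mouse) and the removal of cells with myeloid UMIs from the T gate (14 left) were not run. Depth limits Il1a, Il6 and Lif, whose UMIs numbered 73, 56 and 139, and the Il1rn level of fibroblasts.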

Other observations

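A small neutrophil gate of 27 cells carried Il1b at 220.2 ± 102 CPM over 3 mice (21 UMIs), of which mice 1 and 2 gave 1 UMI each, from 3 and 2 cells. The gate was not clean: its own 6 markers summed to 5049 to 235933 CPM between tumours and the 8 luminal markers to 1563 to 50185. The 5 monocyte markers ranged from 0 to 11949 CPM in it. Tumour 4 held 15 of the 21 UMIs, and in mouse 3 the level was 90.4 CPM in the thoracic and 1033 in the inguinal tumour (ratio 0.0875, exact 95% interval 0.0211 to 0.275). Without tumour 4 the mean was 143 ± 66.3 CPM, and without tumour 3 it was 457 ± 501, both alternatives chosen after the values were seen. The whole-data mean stands beside 216 ± 44.2 CPM in macrophages and 124 ± 27.3 CPM in other myeloid cells. The neutrophil gate had 0 UMIs of Il1a, Il1rn and Il18 and 1 of Osm among 71704 UMIs. Its floor of 3 counts was at 51.0 to 652 CPM in the mice, above the macrophage means of these genes. These counts therefore do not show a lower level than in macrophages. Mural cells (194) had 0 UMIs of Il33, Il1b, Lif and Osm, while fibroblasts, the other matrix-producing cells, had Il33 at 133 ± 29.9 CPM. The mural floor of 3 counts was at 11.8 to 49.4 CPM in the mice, above the fibroblast Lif mean of 7.40. Cells without a gate held 41.6% of all Il17b UMIs and 23.7% of all Il33 UMIs. Of the 727 ungated Il17b UMIs, 249 were in the 425 cells with fibroblast markers, 207 of them in tumour 3, 378 in the 7249 other cells with luminal markers and 100 in the 612 cells with neither.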
